A study of Mus musculus with 14 samples.

Results

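The BCL2 family decides whether the outer membrane of a mitochondrion stays closed, and its death and survival members were followed here in dopaminergic neurons that lack transferrin receptor 1 (Tfr1, encoded by Tfrc), the receptor through which cells take up iron bound to transferrin. The 10 members were chosen by name: the death genes Hrk, Bbc3, Bcl2l11, Pmaip1 and Bid, the pore formers Bax and Bak1, and the survival genes Bcl2, Bcl2l1 and Mcl1. All probe sets of these genes that carry exactly 1 gene symbol were taken from an Affymetrix mouse array. This gave 29 probe sets for 9 genes, of 34945 probe sets for 18193 genes tested. No such probe set is named for Bax, which was not analysed here. Hrk and Bbc3 have 2 and 1 probe sets, Bcl2l11 has 5, Pmaip1 1, Bid 3, Bak1 2, Bcl2 5, Bcl2l1 4 and Mcl1 6.

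In this family the BH3-only proteins act as sensors of damage. Each either blocks the survival proteins or directly activates BAX and BAK, which then form pores that release cytochrome c and start caspase activation. In neurons that lose trophic support or suffer axon damage, transcription of several BH3-only genes is known to be induced through c-Jun N-terminal kinase and the factors JUN, FOXO, p53 and CHOP, while BCL-XL and MCL1 hold the pore formers in check.

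All groups were F2 mice of 129Sv and C57BL/6 background, and all carried the Ribotag allele, which puts an epitope on a ribosomal protein so that ribosome-bound mRNA of the chosen neurons can be pulled out of a ventral midbrain lysate. Tfr1-null animals (Tfr1ΔDN) had Tfr1 deleted in dopaminergic neurons, and the controls (CTR) were heterozygous for the Tfr1 allele, so no group was wild type. The groups were control at 3 weeks of age (3 libraries), Tfr1-null at 3 weeks (4), control at 10 weeks (4) and Tfr1-null at 10 weeks (3), and the submitters name the younger age as early and the older as late in the degeneration. Neither the Cre driver nor the deleted exons were stated in the labels. Nor do they state that a replicate is an animal of its own, so p-values measure only the spread between these libraries, which may be technical.

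In 2 libraries Tfrc, read first as a check of genotype, went against the label. The control probe set for its 5′ end read 9.50 to 9.59 log2 units in the 3-week controls and 6.88 to 7.73 in Tfr1-null 2 to 4 of that age, but 9.67 in the library labelled Tfr1-null 3 weeks 1, whose source name says control. At 10 weeks it read 9.63 to 10.44 in controls 2 to 4 and 7.79 to 9.29 in Tfr1-null, but 8.55 in the library labelled control 10 weeks 1. The control probe sets for the 3′ end and the middle of Tfrc ran the opposite way. At 3 weeks they read 9.19 to 9.29 and 8.80 to 8.86 in the controls, 10.99 to 11.25 and 10.70 to 10.98 in Tfr1-null 2 to 4, and 9.19 and 8.82 in the library labelled Tfr1-null 3 weeks 1. At 10 weeks they read 8.56 to 9.84 and 9.17 to 9.86 in controls 2 to 4, 11.45 to 11.63 and 11.39 to 11.69 in Tfr1-null, and 11.31 and 11.43 in the library labelled control 10 weeks 1. Tfrc signal was thus higher in Tfr1-null outside the 5′ end, and by all 3 probe sets the 2 libraries read with the genotype opposite to their label. Main values are therefore over the 12 other libraries. Counts of member calls, and the differences of the probe sets described most closely, are also given over all 14 as labelled, and the plot of differences shows both for all 29. Th, which makes the dopamine precursor, read 13.54 to 14.55 and Slc6a3, the dopamine transporter, 13.36 to 14.42 over all libraries, against array medians of 6.41 to 6.47 at 3 weeks and 7.36 to 7.43 at 10 weeks. Because the array medians differ between the ages, levels are compared within an age only. Among the 7 libraries of each age, a male pattern (Y-linked Eif2s3y and Kdm5d high, Xist low) was found in 1 of the younger and in all 7 of the older. The 1 younger library is control 3 weeks 2, so the pattern was in 1 of 3 controls and 0 of 4 Tfr1-null libraries of that age. The part of sex in the differences was not tested by a model term. Without control 3 weeks 2 the 3-week difference of Hrk 1439854_at was 1.04 log2 units, beside 1.07 with it.

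Of the 14 promoter windows that RefSeq places at 9 of the members (mouse build GRCm38.p6, 250 bases before to 50 after a transcript start), 3 are shown: the single window of Hrk, and of the 2 of Bcl2l11 and the 3 of Bbc3 the 1 window each that holds a FOXO match. The other 3 windows of these BH3-only genes hold no FOXO match. The sequences are the 250 bases before a start, on the + strand, with matches to the searched motifs in capitals.
Hrk, chr5:118169514-118169763: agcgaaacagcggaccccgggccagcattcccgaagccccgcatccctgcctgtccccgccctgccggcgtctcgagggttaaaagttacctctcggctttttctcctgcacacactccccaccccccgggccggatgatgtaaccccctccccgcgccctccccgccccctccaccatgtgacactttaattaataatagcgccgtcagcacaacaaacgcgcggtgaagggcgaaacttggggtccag
Bcl2l11, first start, chr2:128125788-128126037: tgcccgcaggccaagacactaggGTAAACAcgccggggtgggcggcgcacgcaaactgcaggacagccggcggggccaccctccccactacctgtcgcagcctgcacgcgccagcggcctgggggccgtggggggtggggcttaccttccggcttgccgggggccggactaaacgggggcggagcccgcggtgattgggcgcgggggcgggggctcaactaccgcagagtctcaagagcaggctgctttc
Bbc3, second start, chr7:16310011-16310260: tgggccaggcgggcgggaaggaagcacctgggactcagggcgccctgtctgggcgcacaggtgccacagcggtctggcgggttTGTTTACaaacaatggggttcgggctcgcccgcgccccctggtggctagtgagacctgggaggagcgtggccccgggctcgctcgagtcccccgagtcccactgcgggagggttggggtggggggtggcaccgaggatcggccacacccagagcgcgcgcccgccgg
These windows are rich in G and C, with 65.7% in the Hrk window, 71.0% in this Bcl2l11 window and 74.7% in this Bbc3 window, beside a median of 52.7% over all 32851 windows. The FOXO motif GTAAACA, searched on both strands like all motifs here, lies 227 to 221 bases before the Bcl2l11 start. It lies on the opposite strand, read as TGTTTAC, 167 to 161 bases before the Bbc3 start. It was present in 2 of the 14 member windows and in 3.65% of all windows. The AP-1 motif TGANTCA (7.81% of all windows), the cyclic AMP response element TGACGTCA (1.79%) and the CHOP motif TGATGNAAT (0.965%) were in 0 of the 14, and the hypoxia core ACGTG (19.6%) was in 2, the third Bbc3 window and the Bax window. A match is a stretch of letters and no measured binding site.

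At 10 weeks 9 of the 29 probe sets rose in Tfr1-null neurons and 0 fell over the 12 libraries. They belong to 5 genes, and 8 of the 9 to 4 of the 5 BH3-only genes, Hrk, Bcl2l11, Bbc3 and Pmaip1. The ninth belongs to Bcl2l1. A probe set is called higher or lower when limma's test gave an adjusted p under 0.05 (Benjamini-Hochberg over all 34945 probe sets). Over the whole array 4.54% of probe sets were called higher at 10 weeks and 9.33% in either direction. The median difference, Tfr1-null minus control, was 0.29 log2 units over the 29 member probe sets and 0.00 over all probe sets. With all 14 libraries as labelled, 2 member probe sets were called higher, 1 of Bbc3 and 1 of Bcl2l11, beside 0.435% of the array called higher and 0.738% in either direction. In ribosome-bound RNA pulled from a tissue, fewer cells of a type and less RNA per cell cannot be told apart.

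The spread sets how firmly these calls stand. Over the 12 libraries the median within-group SD was 0.132 log2 units at 3 weeks and 0.234 at 10 weeks over all probe sets, and 0.162 and 0.306 over the members, while the test uses 1 spread for both ages. With the 10-week libraries fitted alone, which called 0.821% of the array, limma called 2 of the 29 member probe sets, both of Hrk.

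Hrk encodes Harakiri, a BH3-only protein largely confined to the nervous system that binds BCL-XL and BCL2. At 10 weeks its brighter probe set (1439854_at) read 10.53, 10.07 and 9.86 log2 units with Tfr1 deleted and 6.65, 6.76 and 6.92 in controls 2 to 4. The library labelled control 10 weeks 1 read 9.84. The Tfr1-null libraries all lay about as high as the library of doubtful label and far above the other controls. The difference was 3.38 log2 units (SE 0.23), a 10.4-fold higher signal, with an adjusted limma p of 4.03e-05 over 12 libraries. Over all 14 libraries it was 2.61 (SE 0.62) with an adjusted p of 0.0667. The second Hrk probe set (1450366_at) read 8.11, 8.93 and 8.60 in Tfr1-null and 6.58, 6.71 and 7.12 in controls 2 to 4 at 10 weeks, a difference of 1.75 (SE 0.21, adjusted limma p 0.00083). In the library labelled control 10 weeks 1 it read 9.33, above every Tfr1-null library, and over 14 libraries the difference was 1.12 (adjusted limma p 0.255). Over the 12 libraries both Hrk probe sets kept their call when any 1 library was left out.

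**Figure D1:**
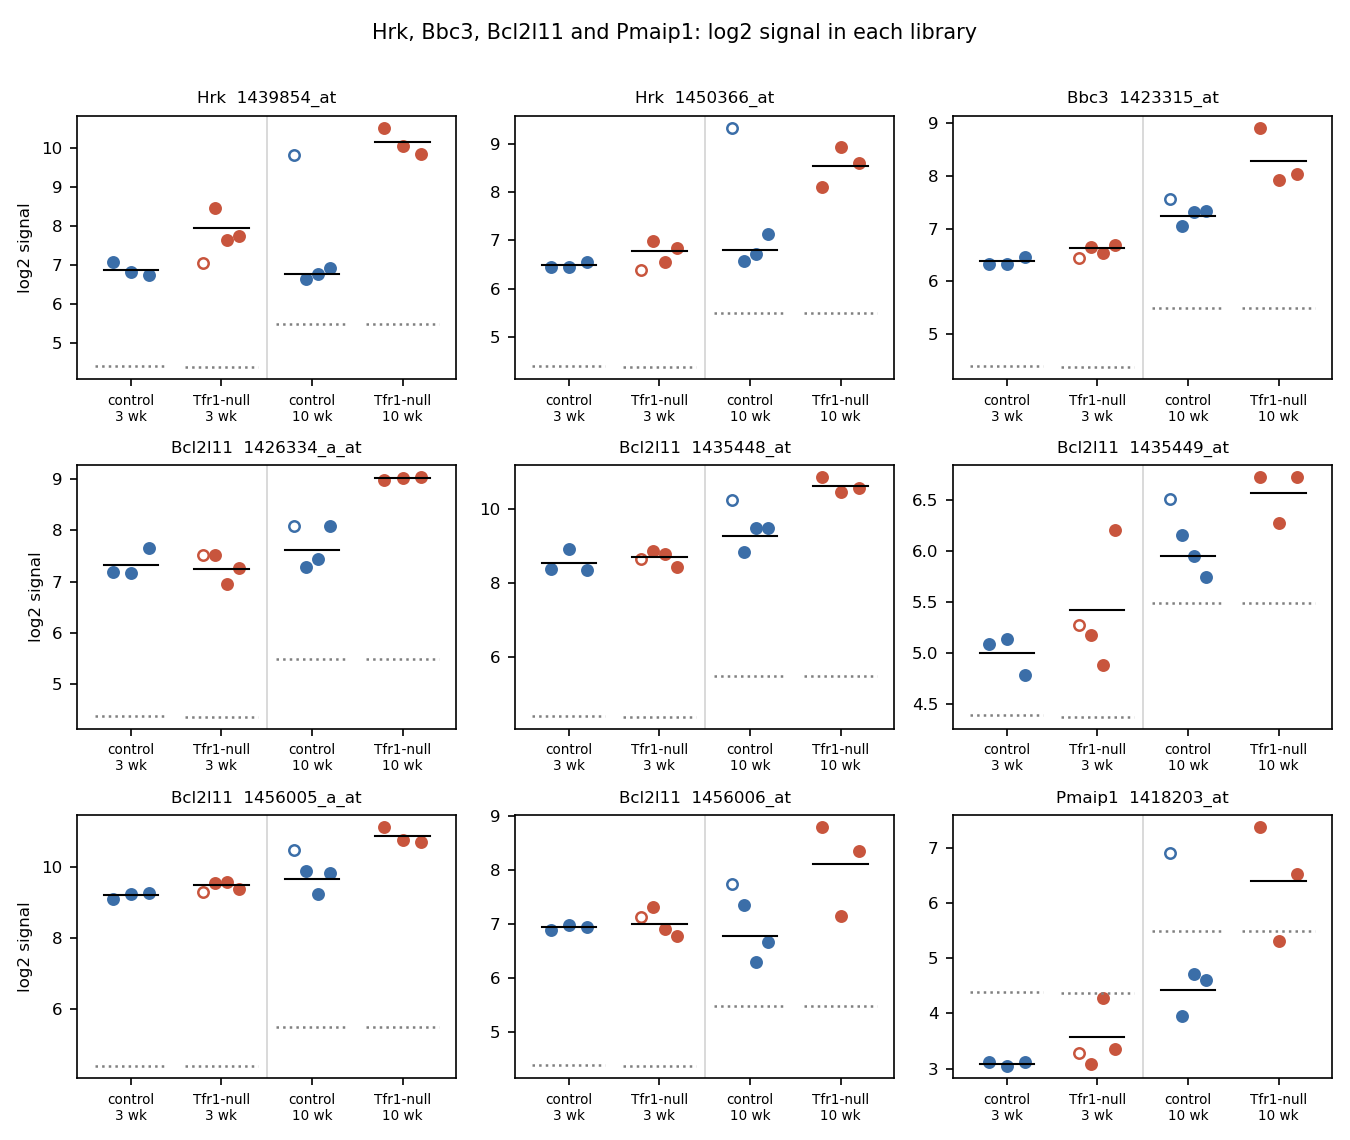
Log2 signal (vertical axis) in each library for every probe set of Hrk, Bbc3, Bcl2l11 and Pmaip1, by group (horizontal axis). Filled points are the 12 libraries, open points the 2 of doubtful label, lines the mean of the filled points, and dotted lines the group's mean 25th percentile of its arrays; at 10 weeks the filled Hrk points of Tfr1-null (9.86 to 10.53 for 1439854_at) lie apart from those of the controls (6.65 to 6.92), whereas Pmaip1 controls lie under the dotted line.

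Hrk was also the member with the largest difference at 3 weeks. There 1439854_at read 8.47, 7.65 and 7.74 in Tfr1-null 2 to 4, 7.08, 6.81 and 6.75 in the controls, and 7.04 in the library labelled Tfr1-null 3 weeks 1. The 12-library groups did not overlap, and the library of doubtful label lay among the controls. The difference was 1.07 log2 units (SE 0.23, adjusted limma p 0.0561), which missed the threshold. Over 14 libraries the difference was 0.84 (SE 0.62, adjusted limma p 1.00). With array weights, which called 2035 of the 34945 probe sets at 3 weeks, the 12-library adjusted limma p was 0.00623. With dim probe sets left out, which called 402 of 29493, it was 0.0496. With the 3-week libraries fitted alone it was 0.0601 (difference 1.07, SE 0.22), not called. Hrk was also not called with the replicate number as a block or with quantile normalization. With 1 probe set tested per gene, over 18193 genes, its adjusted limma p was 0.0384 and it was the 1 member called, beside 1.84% of genes called at 3 weeks and 11.1% at 10 weeks. The second probe set differed by 0.31 (SE 0.21, adjusted limma p 0.804).

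The genotype difference of Hrk 1439854_at was larger at 10 weeks than at 3 weeks by 2.30 log2 units (SE 0.32, adjusted limma p 0.0249 over 12 libraries). It was the 1 of 29 member probe sets for which the 2 ages differed by that test, which called 0.177% of the array. Over 14 libraries the same difference was 1.77 (SE 0.88, adjusted limma p 0.687), and limma called 0 members and 0% of the array. At an unadjusted limma p under 0.05 there were 4 member probe sets over 14 libraries, beside 2604 of the 34945 on the array. Over 12 libraries there were 10, beside 4164. The 12-library call was lost without any of the 3 controls or without Tfr1-null 3 or 4 of the younger age. The differences were then 2.15 to 2.37 and the adjusted limma p values 0.0718 to 0.104. The 2 ages also differed in sex pattern (male in all 7 older libraries and in 1 of the 7 younger) and in array medians. The part of age in this change cannot be told apart from these.

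Bcl2l11 encodes BIM, a BH3-only protein that binds all survival members and can activate BAX and BAK directly. Its brightest probe set (1456005_a_at) read 11.14, 10.77 and 10.72 in the 10-week Tfr1-null libraries, 9.90, 9.23 and 9.83 in controls 2 to 4, and 10.49 in the library labelled control 10 weeks 1. All Tfr1-null values lay above all controls, that library included. The difference was 1.22 log2 units (SE 0.18, adjusted limma p 0.00249), and 1.01 over 14 libraries (adjusted limma p 0.0547, or 0.0469 with 1 probe set tested per gene). Probe set 1426334_a_at read 8.97, 9.02 and 9.03 in Tfr1-null and 7.29, 7.45 and 8.08 in controls 2 to 4, with 8.09 in the library labelled control 10 weeks 1. Its difference of 1.40 (SE 0.22, adjusted limma p 0.00351) kept its call over 14 libraries at 1.28 (SE 0.21, adjusted limma p 0.0361). The 14-library call was lost in 10 of the 14 fits that leave out 1 library (all but those without either library of doubtful label, Tfr1-null 10 weeks 2 or control 10 weeks 4), at 1.13 to 1.30 and adjusted limma p values of 0.0564 to 0.0779, and with array weights (1.29, 0.088). The 12-library call was lost in 0 of 12 fits that leave out 1 library. The library labelled control 10 weeks 1 thus read with the controls at this Bcl2l11 probe set and nearer Tfr1-null at the others.

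Probe set 1435448_at of Bcl2l11 rose by 1.36 (SE 0.22, adjusted limma p 0.00429) over 12 libraries, and over 14 libraries the difference was 1.12 (adjusted limma p 0.0641). Probe set 1456006_at just passed, with a difference of 1.33 (SE 0.37, adjusted limma p 0.04996). Its groups overlapped, since Tfr1-null 2 read 7.16 and control 2 read 7.35, and 10 of 12 fits that leave out 1 library (all but those without Tfr1-null 2 or control 2 of that age) lost the call, with adjusted limma p values of 0.067 to 0.142. The call was also lost with array weights (adjusted limma p 0.145) and with quantile normalization (0.0507), and over 14 libraries the difference was 1.09 (adjusted limma p 0.144). The dimmest Bcl2l11 probe set (1435449_at) read 6.72, 6.27 and 6.72 against 6.15, 5.95 and 5.74 without overlap, but its difference of 0.62 (SE 0.29, adjusted limma p 0.214) did not pass. With the 10-week libraries fitted alone, the adjusted limma p of 1426334_a_at, 1435448_at and 1456005_a_at was 0.0556, 0.0635 and 0.0803.

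At 3 weeks 0 of the 5 Bcl2l11 probe sets were called, with differences of -0.09 to 0.42 over 12 libraries. The brightest read 9.56, 9.57 and 9.38 in Tfr1-null 2 to 4 and 9.11, 9.25 and 9.26 in the controls, a difference of 0.30 (SE 0.18) without overlap. The change of its difference between the ages was 0.92 (SE 0.25, adjusted limma p 0.199).

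Bbc3 encodes PUMA, a BH3-only protein and a classical target of p53 that is also induced without it. Its probe set (1423315_at) read 8.92, 7.92 and 8.04 in Tfr1-null at 10 weeks and 7.06, 7.31 and 7.34 in controls 2 to 4. The library labelled control 10 weeks 1 read 7.56, nearer the controls. The difference was 1.06 log2 units (SE 0.22, adjusted limma p 0.014) over 12 libraries and 0.98 (SE 0.20, adjusted limma p 0.0487) over 14, a 2.08-fold and a 1.97-fold higher signal. The 14-library call was lost in 12 of 14 fits that leave out 1 library (all but those without control 1 or Tfr1-null 2 of 10 weeks), at 0.66 to 1.10 and adjusted limma p values of 0.0586 to 0.0996, and with array weights (0.94, 0.106). The 12-library call was lost in 0 of 12 fits that leave out 1 library. With the 10-week libraries fitted alone the adjusted limma p was 0.165. At 3 weeks it read 6.66, 6.54 and 6.70 in Tfr1-null 2 to 4 and 6.34, 6.34 and 6.47 in the controls, a difference of 0.25 (SE 0.22, adjusted limma p 0.897).

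Pmaip1 encodes NOXA, a BH3-only protein that binds chiefly MCL1. Its probe set (1418203_at) was dim: 11 of 14 libraries lay under the 25th percentile of their own array, which is taken here as the limit of background because the values carry no detection calls. At 10 weeks Tfr1-null read 7.38, 5.31 and 6.52, controls 2 to 4 read 3.96, 4.72 and 4.60, and the library labelled control 10 weeks 1 read 6.90. Tfr1-null 2 lay under the limit and the other Tfr1-null libraries above it. Measured against the limit in the controls, the mean of Tfr1-null was 0.92 log2 units higher, with Tfr1-null 2 counted as read. This is no lower bound, since that library itself lay under the limit. The fitted difference of 1.98 (SE 0.46) had an adjusted limma p of 0.0235. The call was lost without Tfr1-null 10 weeks 1 (adjusted limma p 0.061), Tfr1-null 10 weeks 3 (0.0667) or control 10 weeks 2 (0.0603), and with array weights (0.0913). Over 14 libraries the fitted difference was 1.36 (adjusted limma p 0.245). At 3 weeks neither group was above background, and no fold is given.

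Bid, the BH3-only protein that caspase-8 cleaves to pass on a death-receptor signal, was called at neither age. Its brightest probe set (1417045_at) read 9.03, 9.08 and 9.35 in 10-week Tfr1-null and 9.08, 9.36 and 9.50 in controls 2 to 4, a difference of -0.16 log2 units (SE 0.13, adjusted limma p 0.489). The library labelled control 10 weeks 1 read 10.78 there and 7.26 at 1447873_x_at, above all other 10-week libraries at both, but 7.98 at 1448560_at, within them. This library therefore did not read like Tfr1-null for every member. The other 2 Bid probe sets differed by -0.39 (SE 0.16, adjusted limma p 0.151) and 0.02 at 10 weeks. Over 14 libraries the 10-week differences were -0.53 (SE 0.29, adjusted limma p 0.354) for 1417045_at, -0.61 (SE 0.22, adjusted limma p 0.163) for 1447873_x_at and 0.06 for 1448560_at.

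Bak1 encodes BAK, the pore former that sits in the outer mitochondrial membrane. Its brighter probe set (1425716_s_at) read 10.06, 9.62 and 10.16 in 10-week Tfr1-null and 9.24, 9.77 and 9.56 in controls 2 to 4, with overlap. The difference was 0.42 log2 units (SE 0.19, adjusted limma p 0.203), and the second probe set (1418991_at) differed by -0.32 (SE 0.30) in the opposite direction. Over 14 libraries these 10-week differences were 0.50 (SE 0.18, adjusted limma p 0.154) and -0.13 (SE 0.29). At 3 weeks the 2 differed by 0.21 and 0.11, and neither was called.

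**Figure D2:**
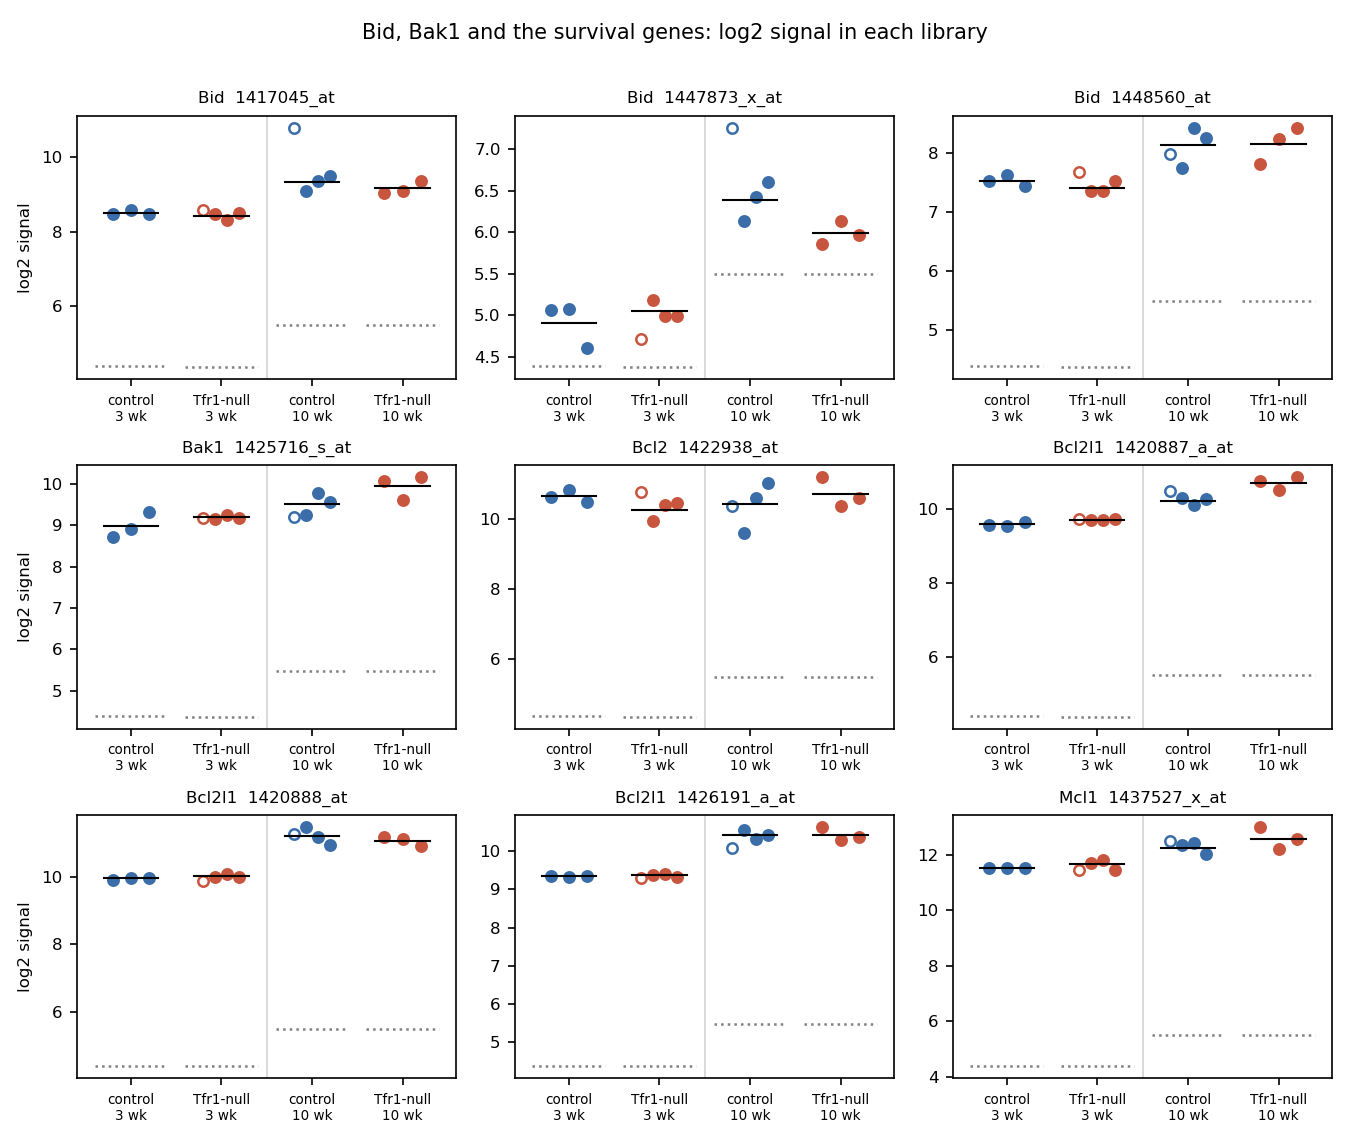
Log2 signal (vertical axis) in each library for 9 probe sets (3 of Bid, the 3 of Bcl2l1 above background, the brightest of Bak1, Bcl2 and Mcl1), by group (horizontal axis), with filled points for the 12 libraries, open points for the 2 of doubtful label, lines for the mean of the filled points and dotted lines for the mean 25th percentile of the group's arrays. The groups of an age overlap in most panels; Bcl2l1 1420887_a_at at 10 weeks (10.50 to 10.85 against 10.10 to 10.29) does not, and Bid 1417045_at shows the open control point at 10.78.

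Among the survival genes, Bcl2l1 had a call at 1 of its 4 probe sets. The gene encodes BCL-XL, the main survival member of mature neurons, and, through an alternative splice site, the death-promoting BCL-XS. Probe set 1420887_a_at read 10.74, 10.50 and 10.85 in 10-week Tfr1-null and 10.29, 10.10 and 10.27 in controls 2 to 4, with 10.48 in the library labelled control 10 weeks 1. The rise was 0.47 log2 units (SE 0.11, adjusted limma p 0.0208), a 1.39-fold higher signal, and over 14 libraries the difference was 0.41 (adjusted limma p 0.0783). It was lost without Tfr1-null 1 (0.45, adjusted limma p 0.057), Tfr1-null 3 (0.40, 0.0605) or control 3 (0.42, 0.0571) of 10 weeks, and with array weights (0.45, 0.0918). The 3 other probe sets of the gene differed by -0.13, 0.11 and 0.00, the brightest (1420888_at) reading 11.19, 11.13 and 10.93 against 11.49, 11.19 and 10.94. The probe set with 0.11 (1426050_at) was dim and lay under the 25th percentile of the array in 10 of 14 libraries. After subtracting the mean of each age, the 4 probe sets correlated with each other at -0.29 to 0.17 across 14 libraries. Which transcript each matches was not analysed here. At 3 weeks 1420887_a_at read 9.69 to 9.71 in Tfr1-null and 9.52 to 9.65 in the controls over 14 libraries, without overlap. Its 12-library difference was 0.13 (SE 0.11, adjusted limma p 0.891). The groups of 1420888_at did not overlap over 12 libraries either, with a difference of 0.07 (SE 0.13). Neither was called at that age.

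Bcl2, a survival protein of the outer mitochondrial membrane and endoplasmic reticulum, was called at neither age at any of its 5 probe sets. The brightest (1422938_at) read 11.18, 10.35 and 10.60 in 10-week Tfr1-null and 9.61, 10.59 and 11.02 in controls 2 to 4, a difference of 0.31 log2 units (SE 0.33, adjusted limma p 0.621). At 3 weeks it read 9.93, 10.40 and 10.45 in Tfr1-null 2 to 4 and 10.63, 10.81 and 10.49 in the controls, a difference of -0.38 (SE 0.33, adjusted limma p 0.894) whose groups did not overlap. The library labelled Tfr1-null 3 weeks 1 read 10.77, among the controls. Over 14 libraries the differences of this probe set were -0.26 (SE 0.30) at 3 weeks and 0.31 (SE 0.30) at 10 weeks. Over the 5 probe sets the 3-week differences ran from -0.41 to 0.10; 2 of these probe sets were not above background in either 3-week group.

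Mcl1 encodes a short-lived survival protein that binds BIM and NOXA. Its 6 probe sets were called at neither age, with differences of -0.07 to 0.14 log2 units at 3 weeks and -0.19 to 0.33 at 10 weeks. The brightest (1437527_x_at) read 13.01, 12.20 and 12.56 in 10-week Tfr1-null and 12.34, 12.43 and 12.02 in controls 2 to 4, a difference of 0.33 (SE 0.19, adjusted limma p 0.318). Over 14 libraries it was 0.27 (SE 0.17, adjusted limma p 0.426). Its 3 probe sets of the _x_at kind, whose probes may also match other transcripts, correlated with each other at 0.98 to 0.99 across 14 libraries, whereas all 15 pairs of the gene's probe sets ran from -0.45 to 0.99.

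At 3 weeks limma called 0 of the 29 member probe sets over 12 libraries, beside 1.08% of the array, and 0 over 14, beside 0% of the array. At an unadjusted limma p under 0.05 there was 1 over 12 libraries, Hrk 1439854_at, beside 3219 of all 34945 probe sets. Over 14 libraries there were 0, beside 1391. With the 3-week libraries fitted alone, 0 members were called beside 3.19% of the array. The median difference of the 29 was 0.10 over 12 libraries, and 0.01 over all probe sets.

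Libraries of the genotypes were also compared by whether they overlap, with no test. At 3 weeks 5 member probe sets lay higher and 1 lower without overlap over 12 libraries, beside 22.6% of the array in either direction. At 10 weeks 9 lay higher and 0 lower, beside 21.2%. Over 14 libraries 2 lay higher at 3 weeks (7.51% of the array in either direction) and 6 at 10 weeks (9.67%). The 2 at 3 weeks were Bcl2l11 1456005_a_at and the survival gene's Bcl2l1 1420887_a_at.

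**Figure D3:**
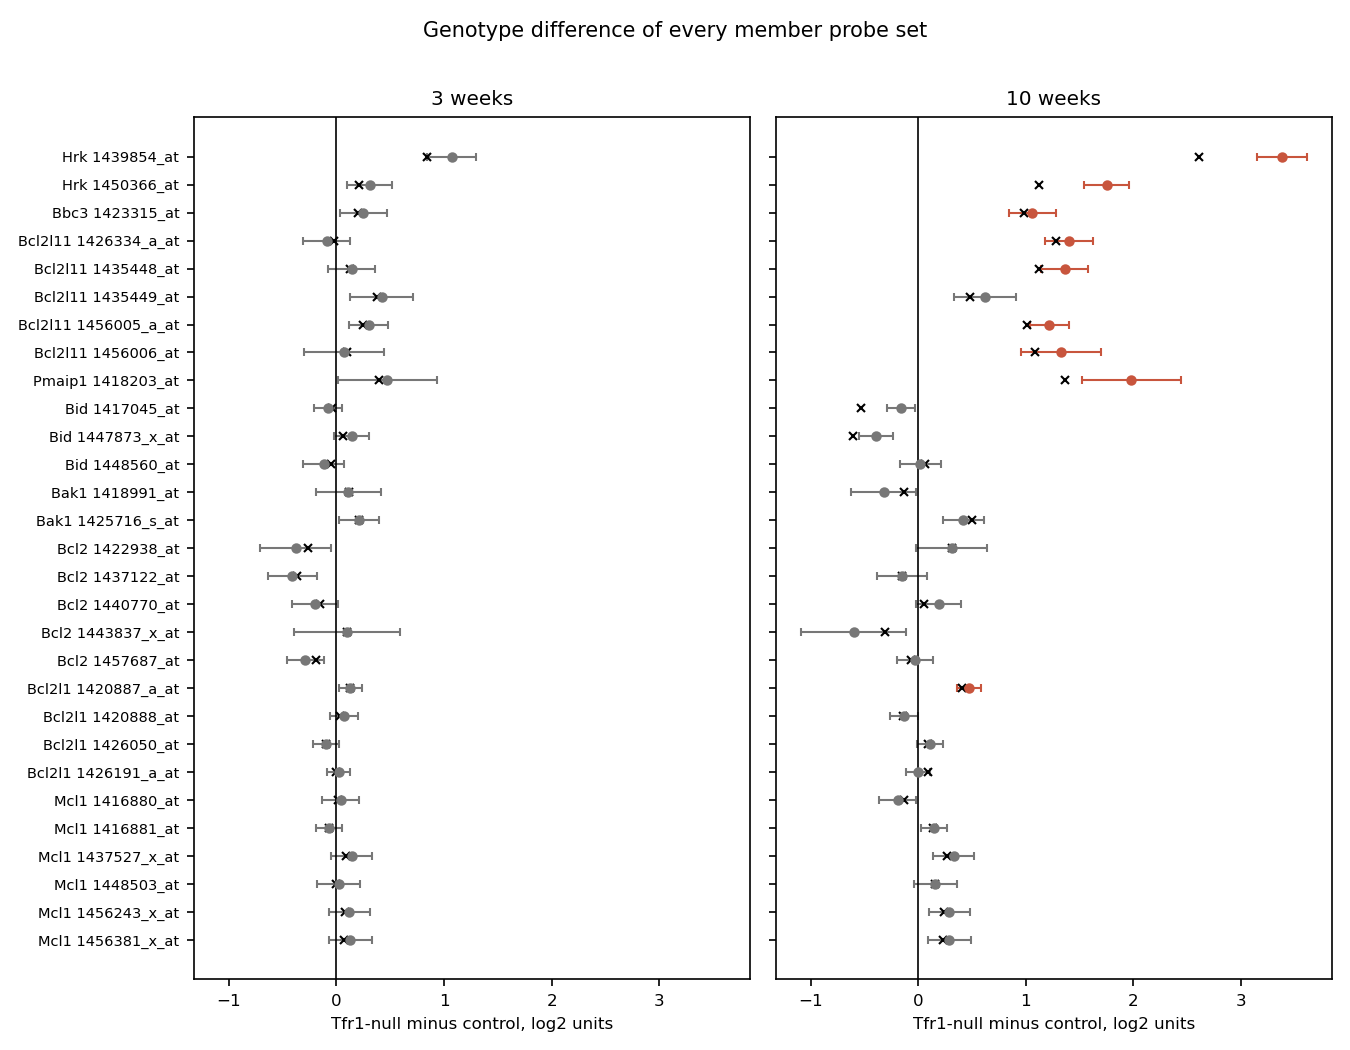
Tfr1-null minus control difference in log2 units (horizontal axis) for all 29 member probe sets (vertical axis) at 3 and 10 weeks. Points with bars are the 12-library difference and its SE, red where called, and crosses are the 14-library difference. The red points lie at 10 weeks only, from 0.47 for Bcl2l1 1420887_a_at to 3.38 for Hrk 1439854_at. The cross beside each red point lies nearer 0.

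The 2 libraries of doubtful label were set against the means of the 12 others. At the 9 probe sets called at 10 weeks, the library labelled control 10 weeks 1 lay nearer the Tfr1-null mean in 7 and nearer the control mean at Bbc3 and at Bcl2l11 1426334_a_at. At the 20 others it lay nearer Tfr1-null in 9. The library labelled Tfr1-null 3 weeks 1 lay nearer the control mean in 6 of the 9 and in 13 of the 20. At 3 weeks 0 of the 29 were called. Some means lay close together, as at Bcl2l11 1426334_a_at at 3 weeks (control 7.34, Tfr1-null 7.25). Among the 20 others, both means of Bcl2l1 1426191_a_at were 10.42 at 10 weeks. Where the means are so close, nearness says little about a label.

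Across the 14 libraries, after subtracting the mean of each age, the brightest probe sets of Hrk, Bcl2l11, Bbc3 and Pmaip1 correlated with each other at Pearson's r of 0.761 (Pmaip1 and Bcl2l11) to 0.916 (Hrk and Bcl2l11). The other pairs were Hrk and Bbc3 at 0.816, Hrk and Pmaip1 at 0.812, Bbc3 and Bcl2l11 at 0.83, and Bbc3 and Pmaip1 at 0.768. The survival gene Mcl1 correlated with Hrk, Bbc3 and Bcl2l11 at 0.557 (Bcl2l11) to 0.709 (Bbc3), and the pore former Bak1 at 0.357, 0.657 and 0.378. For Bcl2 the values in that order were 0.119, 0.437 and 0.135, for Bid 0.12, -0.244 and -0.057, and for Bcl2l1 -0.169, -0.235 and -0.103. These values describe libraries that share their genotype groups and carry no p. The 2 Hrk probe sets correlated at 0.89 and the 5 of Bcl2l11 at 0.37 to 0.84.

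By the same measure the 5 named genes most like Hrk were Nfil3 (r 0.984), Lhfpl2 (0.975), Cd68 (0.970), Tcea1 (0.966) and Agap1 (0.965). Those most like Bbc3 were Stk35 (0.975), Zbtb25 (0.967), Lce1f (0.966), Usp7 (0.954) and Nrm (0.951). Those most like Bcl2l11 were Net1 (0.967), Cd109 (0.961), Zfp729a (0.957), Irf2bp2 (0.952) and Tafa1 (0.949). The 3 lists of 5 have no gene in common.

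Genes around the family are given by their brightest probe set. Over 12 libraries 1.46% of genes were called at 3 weeks and 10.0% at 10 weeks by that probe set. Over 14 libraries limma called 0 of the 58 measured genes of the 5 lists below at either age. Of the 58, 6 at 3 weeks and 18 at 10 weeks had an unadjusted limma p under 0.05. So did 1391 and 6687 of all 34945 probe sets, and 849 and 3612 of 18193 genes fitted with 1 probe set per gene. Over 12 libraries these counts were 7 and 23 genes, beside 3219 and 8748 probe sets, and 1934 and 4801 of the 18193 genes. The median 10-week difference over all genes was -0.01 log2 units.

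Kinases and transcription factors known to act on BH3-only genes held 17 measured genes of 20 listed, of which 2 rose at 3 weeks, and 5 rose and 1 fell at 10 weeks. Their median 10-week difference was 0.38. Atf3, a stress-induced partner of JUN, rose by 4.69 log2 units (SE 0.28) at 3 weeks (adjusted limma p 4.9e-05), and by at least 6.59 at 10 weeks (adjusted limma p 6.67e-07), where the controls were not above background. Ddit3, which encodes CHOP, rose at both ages, by 1.59 (SE 0.19, adjusted limma p 0.0021) and 1.88 (SE 0.19, adjusted limma p 0.000321). Jun differed by 0.11 (SE 0.13, adjusted limma p 0.959) at 3 weeks and rose by 1.82 (SE 0.13, adjusted limma p 4.99e-05) at 10 weeks. Foxo1, a forkhead factor, rose by 1.00 (SE 0.16, adjusted limma p 0.00434) at 10 weeks. The other 2 calls at 10 weeks, named after their values were seen, were Mapk8ip1, a scaffold of the JNK pathway, at 0.63 and Mapk10, a neuronal JNK, at -0.46.

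Of the other BCL2 family genes 12 of 17 were measured, and their median 10-week difference was 0.01. Bnip3, a mitochondrial BH3-like protein and mitophagy receptor, rose by 1.06 (SE 0.09, adjusted limma p 0.000228) at 3 weeks and by 0.88 (SE 0.09, adjusted limma p 0.000323) at 10 weeks. Bad, a BH3-only protein controlled by phosphorylation, fell by 0.56 (SE 0.14, adjusted limma p 0.0325) at 10 weeks. No other gene of this list was called over 12 libraries.

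Downstream of the pore 14 of 16 genes were measured, with 0 limma calls at 3 weeks (1 at an unadjusted p under 0.05), and 1 higher and 2 lower at 10 weeks (median -0.09). Apaf1, the scaffold on which cytochrome c activates caspase-9, rose by 1.32 (SE 0.17, adjusted limma p 0.00128). Aifm1, a flavoprotein of the intermembrane space, fell by 0.76 (SE 0.15, adjusted limma p 0.0129), and Xiap, an inhibitor of caspases, fell by 0.52 (SE 0.15, adjusted limma p 0.0493). Of 7 measured genes of MCL1 and BIM protein turnover (10 listed, median -0.07), limma called 0 at 3 weeks (0 at an unadjusted p under 0.05) and 2 fell at 10 weeks. These were Fbxw7, a ubiquitin ligase subunit for MCL1, by 0.50 (SE 0.13, adjusted limma p 0.0342), and Dynll1, a dynein light chain that binds BIM, by 0.31 (SE 0.09, adjusted limma p 0.0485). In the death-receptor route to Bid 8 of 9 genes were measured and limma called 0 at either age (1 and 0 at an unadjusted p under 0.05, median -0.18 at 10 weeks). The smallest unadjusted p values there, both at 3 weeks, were those of the adaptor Tradd, with a difference of 0.66 (SE 0.19, adjusted limma p 0.184), and of Cflar, an inhibitor of caspase-8, with -0.62 (SE 0.35, adjusted limma p 0.708).

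**Figure D4:**
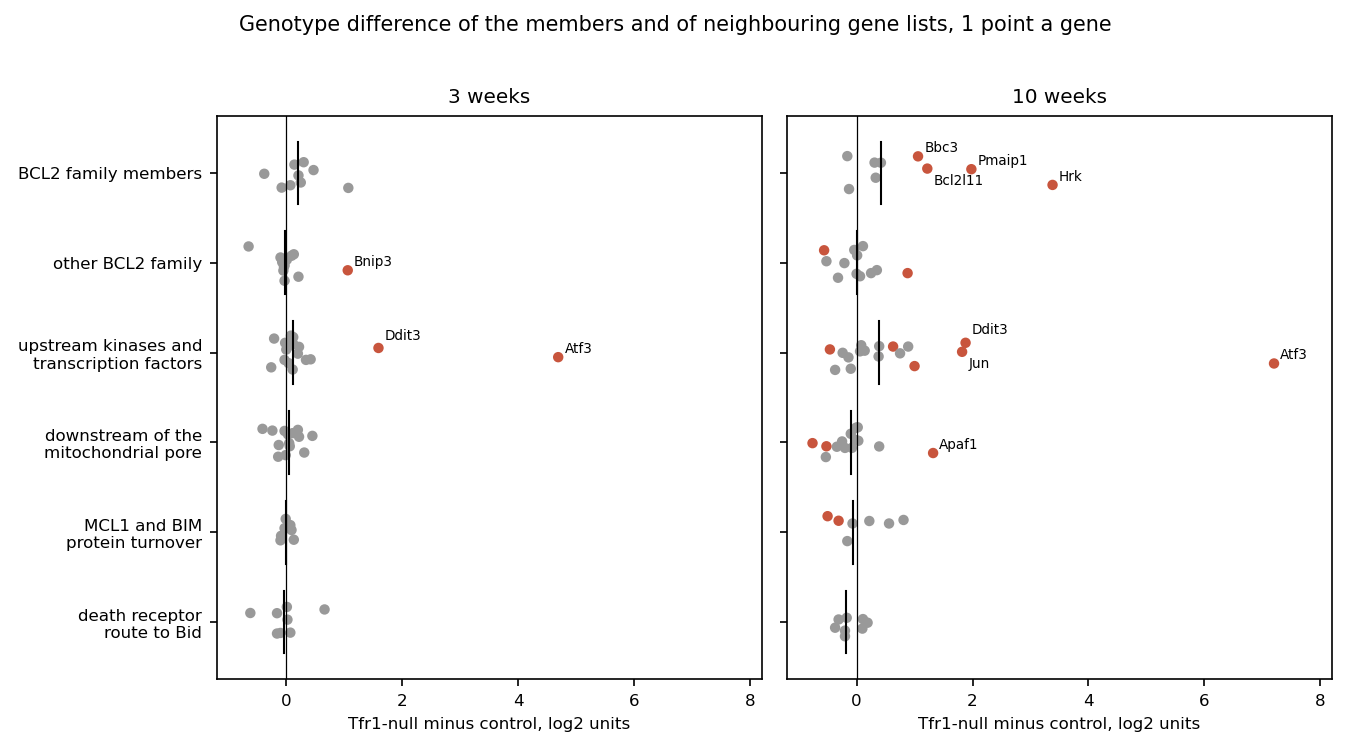
Tfr1-null minus control difference in log2 units (horizontal axis) of the 9 measured members and of 5 neighbouring gene lists (vertical axis), 1 point a gene (brightest probe set, 12 libraries), red where called, with the median of each list as a line. At 10 weeks 4 of the members are red, all BH3-only genes. The Pmaip1 and Atf3 points are fitted differences against controls not above background. Measured against the limit in the controls, these differences were 0.92, which is no lower bound, and at least 6.59.

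Markers of other cells the pulldown could hold were read beside these results, over 12 libraries. At 10 weeks the mean log2 level of 10 microglial markers was 7.45 to 7.99 in controls and 8.13 to 8.50 in Tfr1-null, and at 3 weeks 6.88 to 6.91 and 6.90 to 7.16. Of these markers 1 was called, Cd68, a lysosomal membrane protein, which rose by 2.01 at 3 weeks and 3.87 at 10 weeks. The 10-week differences of the 10 microglial markers ran from -0.34 (Aif1) to 3.87 (Cd68), with a median of 0.45. At an unadjusted limma p under 0.05 there was 1 at 3 weeks and there were 3 at 10 weeks. The 8 astrocyte markers read 9.57 to 10.27 in controls and 9.92 to 10.42 in Tfr1-null at 10 weeks, with 1 called (Sox9, 1.14). Of the 8, 2 had an unadjusted limma p under 0.05 at that age. The 10 dopaminergic markers read 12.64 to 13.00 and 12.24 to 12.56. Of these 1 was called at 10 weeks, the dopamine receptor Drd2, which fell by 0.85 (SE 0.12). Th and Slc6a3 differed by -0.23 and -0.31 and were not called. The 10-week differences of the 10 dopaminergic markers ran from -1.86 (Pitx3, SE 0.69) to 0.10 (Nr4a2). Their median was -0.31, beside -0.01 over all genes. At an unadjusted limma p under 0.05 there were 7 of the 10 at that age. Beside them stood 8748 of all 34945 probe sets, and 4801 of 18193 genes fitted with 1 probe set per gene. Of 3 GABAergic markers 1 was called at 10 weeks (Slc32a1, 0.70), and of 6 oligodendrocyte, 6 endothelial, 2 glutamatergic and 2 erythrocyte markers limma called 0 at either age (1 at an unadjusted p under 0.05, an endothelial marker at 10 weeks). No marker lay under the 25th percentile in every library of a group, and the part of other cells in the BH3-only results was not tested.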

How the data were processed

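The deposited table holds log2 signals of 45101 probe sets in 14 libraries. Per the labels, 50 ng of RNA per library was amplified with NuGEN Ovation V2, biotin-labelled and hybridized, and per the submitters' processing notes the authors made the log2 values by RMA in Partek 6.5. The values were used as deposited. Probe sets with exactly 1 gene symbol in the platform annotation and no control role (34945, for 18193 genes) entered limma 3.58.1 (lmFit and eBayes, default settings) in R 4.3.3, with 4 group means and 1 spread per probe set. Adjustment (Benjamini-Hochberg) ran over all probe sets, and adjusted p under 0.05 was called. The script was tested on simulated data. Tables and plots were made in Python 3.11.15 (matplotlib 3.10.9, numpy 2.4.6, pandas 2.3.3).

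The members, the 12-library set and the gene lists were chosen with earlier results of these data known. Named are all members; in each list up to 4 called genes by smallest p of the brightest probe set, or the 2 with the smallest p if none was called; marker lists as ranges with Th and Slc6a3; and the 5 genes most like Hrk, Bbc3 and Bcl2l11. Mapk8ip1, Mapk10 and the called markers were added after their values were seen. Dim probe sets were kept: 25 of the 29 lay at or above the 25th percentile of the array in every library. Alternatives were 1 probe set per gene, each age fitted alone, array weights, a replicate block, a filter on dim probe sets, quantile normalization and leaving out each library.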

Additional observations from a re-analysis of the deposited data

Results flagged for a closer look

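In 58 groups of 4 libraries (29 probe sets in 2 groups), 3 held a library far from the other 3, and chance flags about 1 in 20 such groups. Hrk 1439854_at read 9.84 in the library labelled control 10 weeks 1 and 6.65 to 6.92 in the other 10-week controls. Mcl1 1416880_at read 11.74 in control 10 weeks 3 and 11.00 to 11.08 in the others. Mcl1 1456243_x_at read 11.25 in control 10 weeks 4 and 11.62 to 11.68 in the others.

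The genotype difference of Hrk 1439854_at was larger at 10 weeks than at 3 weeks by 2.30 log2 units over 12 libraries, by limma's test of that difference. Age cannot be told apart there from sex pattern and array median, which differ between the ages.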

How the results depend on the processing

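Of 212 values recomputed for called members, 0 changed sign, and of 2907 for uncalled members 99 did. Over 12 libraries the 10-week count of called member probe sets, 9, stood beside 3260 of the 34945 on the array. It became 4 with 1 probe set per gene (of 9 tested), beside 2015 of 18193 genes. It was 2 with the age fitted alone, beside 287 on the array. With each library left out it ran from 6 to 9, beside 2203 to 3550. With array weights it was 6, beside 1086 on the array, and Pmaip1, Bcl2l1 1420887_a_at and Bcl2l11 1456006_at were lost. With quantile normalization it was 8, beside 3300, and Bcl2l11 1456006_at was lost. It was 8 of 27 tested with dim probe sets left out, beside 3419 of 29493 on the array, and Pmaip1 was not tested there. The 3-week count was 0, beside 378 on the array. It became 1 with 1 probe set per gene, beside 335 genes, and 1 with array weights, beside 2035. With dim probe sets left out (27 of 29 members tested) it was 1, beside 402. With each library left out it ran from 0 to 1, beside 206 to 472. It was 1 without Tfr1-null 10 weeks 1, beside 447. The count for the change between ages, 1, beside 62 on the array, ran from 0 to 2. It was 2 without control 10 weeks 4, beside 118.

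Over 14 libraries the 10-week count, 2, stood beside 258 on the array. It became 0 with the age fitted alone, beside 1, and with array weights, beside 6. With each library left out it ran from 0 to 9, beside 15 to 3152. It was 9 without control 10 weeks 1, beside 3152, and 4 without Tfr1-null 10 weeks 2, beside 383. Without Tfr1-null 3 weeks 1 or control 10 weeks 4 it was 1, beside 62 and 96. The count for the change between ages ran from 0 to 1, at 1 without control 10 weeks 1, beside 71 on the array.

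Deviations of same-numbered libraries correlated at r -0.01 to 0.12 at 3 weeks and -0.03 to 0.08 at 10 weeks. Of 14 libraries 4 correlated best with their own number. There are 3 such pairs at each age, and the pair numbered 1 holds a library of doubtful label at both. Whether the numbers pair the libraries cannot be decided from so few pairs. With the replicate number as a block the 10-week count was 0 over 14 libraries, beside 5 on the array. The count for the change between ages was then 0 over 12, beside 4. The 10-week count over 12 libraries was 6 with the block, beside 1605 on the array. The block lost Bbc3 1423315_at (0.95, adjusted limma p 0.0563), Bcl2l1 1420887_a_at (0.48, 0.0846) and Bcl2l11 1456006_at (1.09, 0.205). The cause of these moves was not tested, except that fewer libraries or probe sets entered some fits. The number of arrays and the dim signal of Pmaip1 limit precision.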
